A study of Mus musculus with 4 samples.

Results

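Histone genes were followed in the surface cell layers of fetal mouse livers with and without p57, the cyclin-dependent kinase inhibitor encoded by Cdkn1c. Members were selected on gene symbols and MAS5 detection calls: the array's probe sets, other than controls, whose single annotated gene symbol was that of a linker, core or variant histone and which were called Present on at least 2 of 4 arrays. The rule found 17 probe sets for 12 genes among 22800 probe sets that passed the same detection filter and cover 11656 genes with a probe set of their own, of 45101 on the array. They comprised 2 probe sets of 1 linker histone gene, 8 of 6 core histone genes and 7 of 5 variant histone genes. The detection calls were used without regard to genotype, and all 17 were Present on all 4 arrays. Of 25 probe sets that matched by name, the other 8 were not detected. No histone H4 gene had a probe set of its own under the rule. Nearest to the filter were the probe sets of H1f4, H1f6 and H2bc18, each Present on 1 array.

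The p57-/- samples (labelled Kip2 -/-) and the p57+/+ samples (labelled wildtype) were mesothelial and submesothelial cells cut from livers of C57BL/6 embryos at embryonic day 17.5, with 2 samples of each genotype. The titles place 1 sample of each genotype in experiment 1 and 1 of each in experiment 2, and these numbers served as replicate numbers. The labels do not say whether a sample was 1 embryo, a litter or a pool, nor how the p57 allele was made, so the p-values below rest on sample-to-sample spread that could be partly technical. Each sample was hybridised to 1 single-colour Affymetrix array, and values are MAS5 signals on a linear scale. On 2 arrays a genotype, the number of arrays limits the precision.

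The nucleosome core is built from histones H2A, H2B, H3 and H4, and the linker histone H1 binds the DNA where it enters and leaves that core. Most linker and core histone genes are replication-dependent: they lie in clusters, lack introns, are transcribed in S phase and give mRNAs that end in a stem-loop in place of a poly(A) tail. Some of these genes also give polyadenylated mRNAs in cells that leave the cycle. Variant histone genes such as H2az1 and H3f3b lie apart, give polyadenylated mRNAs and are used throughout the cell cycle. The 3' labelling kit named in the labels primes from poly(A), so how much of each replication-dependent mRNA its signals cover is unknown. Many histone genes are also close copies of each other, so a probe set that the annotation gives to 1 gene may take up RNA of its relatives.

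All 12 member genes had an entry under the same symbol in the RefSeq table of GRCm38.p6. The genes H1f2, H2bc22, H3c4, H3c7 and H3c11 were on chromosome 13, and H2ac19, H2bc21 and the variant gene H2az1 were on chromosome 3. H1f2 spanned 23738807 to 23739531 on chromosome 13, and H2ac19 spanned 96239779 to 96240374 on chromosome 3. H2az2 and H3f3b were on chromosome 11, H2ax on chromosome 9 and H3f3a on chromosome 1. The files do not place the probe sets within these genes.

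RefSeq promoter windows of GRCm38.p6, each with 250 bases before and 50 bases after the annotated start, matched 9 of the 12 member genes, all but H2ax, H2bc21 and H3c7. Shown are the 4 of these genes with a probe set at an unadjusted limma p under 0.05, of which H1f2, H2ac19 and H3c11 were at higher signal in p57-/- and H3c4 at lower signal. Capitals mark the CCAAT box (CCAAT), the TATA box (TATAAA) and the H1 box (AAACACA), an element known from linker histone promoters, each searched on both strands.
H1f2 (chr13:23738557-23738856, plus strand): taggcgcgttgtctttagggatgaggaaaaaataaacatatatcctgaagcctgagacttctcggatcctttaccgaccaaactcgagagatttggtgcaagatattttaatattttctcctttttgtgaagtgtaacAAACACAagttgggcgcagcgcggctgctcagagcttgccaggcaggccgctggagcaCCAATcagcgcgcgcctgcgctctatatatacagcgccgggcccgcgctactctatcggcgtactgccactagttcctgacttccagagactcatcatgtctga
H2ac19 (chr3:96240325-96240624, minus strand): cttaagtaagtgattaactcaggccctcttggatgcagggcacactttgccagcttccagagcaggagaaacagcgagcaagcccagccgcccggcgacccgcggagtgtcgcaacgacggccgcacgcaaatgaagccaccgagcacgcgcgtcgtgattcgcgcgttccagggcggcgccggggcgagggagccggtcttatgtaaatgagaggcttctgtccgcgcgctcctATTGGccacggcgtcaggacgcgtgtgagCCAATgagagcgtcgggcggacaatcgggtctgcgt
H3c11 (chr13:21783348-21783647, minus strand): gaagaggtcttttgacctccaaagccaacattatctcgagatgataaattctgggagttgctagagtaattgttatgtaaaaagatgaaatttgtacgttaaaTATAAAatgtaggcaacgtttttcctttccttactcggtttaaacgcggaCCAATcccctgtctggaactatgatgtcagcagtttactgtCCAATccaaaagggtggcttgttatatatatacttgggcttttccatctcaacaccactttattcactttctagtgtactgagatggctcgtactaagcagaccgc
H3c4 (chr13:23575513-23575812, plus strand): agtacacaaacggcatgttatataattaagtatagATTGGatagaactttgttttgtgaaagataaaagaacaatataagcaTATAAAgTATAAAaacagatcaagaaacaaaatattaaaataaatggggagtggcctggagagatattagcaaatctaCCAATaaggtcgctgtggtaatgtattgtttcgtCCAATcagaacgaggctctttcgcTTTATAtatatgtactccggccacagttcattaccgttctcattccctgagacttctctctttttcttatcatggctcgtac
All 9 member windows held a CCAAT box, as did 37.4% of all 32851 windows of this length. The exact letters TATAAA were in 4 of the 9, those of H2bc22, H3c4, H3c11 and H3f3b, and in 13.6% of all windows. Other forms of the TATA box were not searched, so stretches such as tatata in the H1f2 and H3c11 windows are unmarked. The H1 box was in 2 of the 9, those of H1f2 and H3f3a, and in 7.18% of all windows. In H1f2 the H1 box began 112 bases and the CCAAT box 54 bases before the annotated start. H3c11 and H3c4, whose probe sets differed in opposite directions, both had a CCAAT box beginning 56 bases before the start. None of the marked matches overlapped. The windows of H2ac19 and of its neighbour H2ac18 shared an identical run of 219 bases, and 1 probe set that the annotation gives to both of these genes was left out.

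Cdkn1c, the gene of p57, gave 7.79 and 7.28 in p57-/-, called Absent, against 10255 and 9866 in p57+/+, as the labels have it. In limma it was the only probe set of 22800 past an adjusted p of 0.05 (adjusted p = 1.80e-08), so 0.00439% of the probe sets tested were called. Present calls made up 48.5% to 50.1% of an array. Xist, the X-inactivation RNA of female cells, gave 7889 and 6412 in p57-/-, against 12199 and 86.7 in p57+/+. Without p57+/+ replicate 2, the array with low Xist, the median histone change was 0.0023 and 0 histone probe sets passed in limma.

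None of the 17 histone probe sets passed the threshold in limma, at a lowest adjusted p of 0.519. At an unadjusted p under 0.05, limma gave 4 higher and 2 lower, 6 of 17, where all probe sets tested gave 3.93% higher and 3.75% lower, 7.67% in all. Of the 17, 6 lay higher in p57-/- in both experiments, beside 27.9% of all probe sets tested, and 4 lay lower in both, beside 26.8%. The other 7 differed in opposite directions in the 2 experiments, beside 45.3%. The median log2 change, p57-/- minus p57+/+, was 0.014 over the members and 0.0072 over all other probe sets tested. That median was -0.09 in experiment 1 and 0.25 in experiment 2. It was 0.26 without p57-/- replicate 1 and -0.17 without p57-/- replicate 2, so its sign rested on single arrays. With only the brightest probe set of each gene it was -0.054, so its sign also rested on the choice of probe sets. By class the median was 0.58 for the linker, 0.05 for the core and -0.08 for the variant probe sets. The core median was 0.30 without p57-/- replicate 1, -0.19 without p57-/- replicate 2 and -0.013 without p57+/+ replicate 1, and the variant median was 0.051 without p57-/- replicate 1 and -0.21 without p57-/- replicate 2. The signs of both thus rested on single arrays. The linker median, which comes from 2 probe sets of 1 gene, H1f2, stayed between 0.49 and 0.67. The core median turned to -0.32 when only the brightest probe set of each gene was used.

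**Figure D1:**
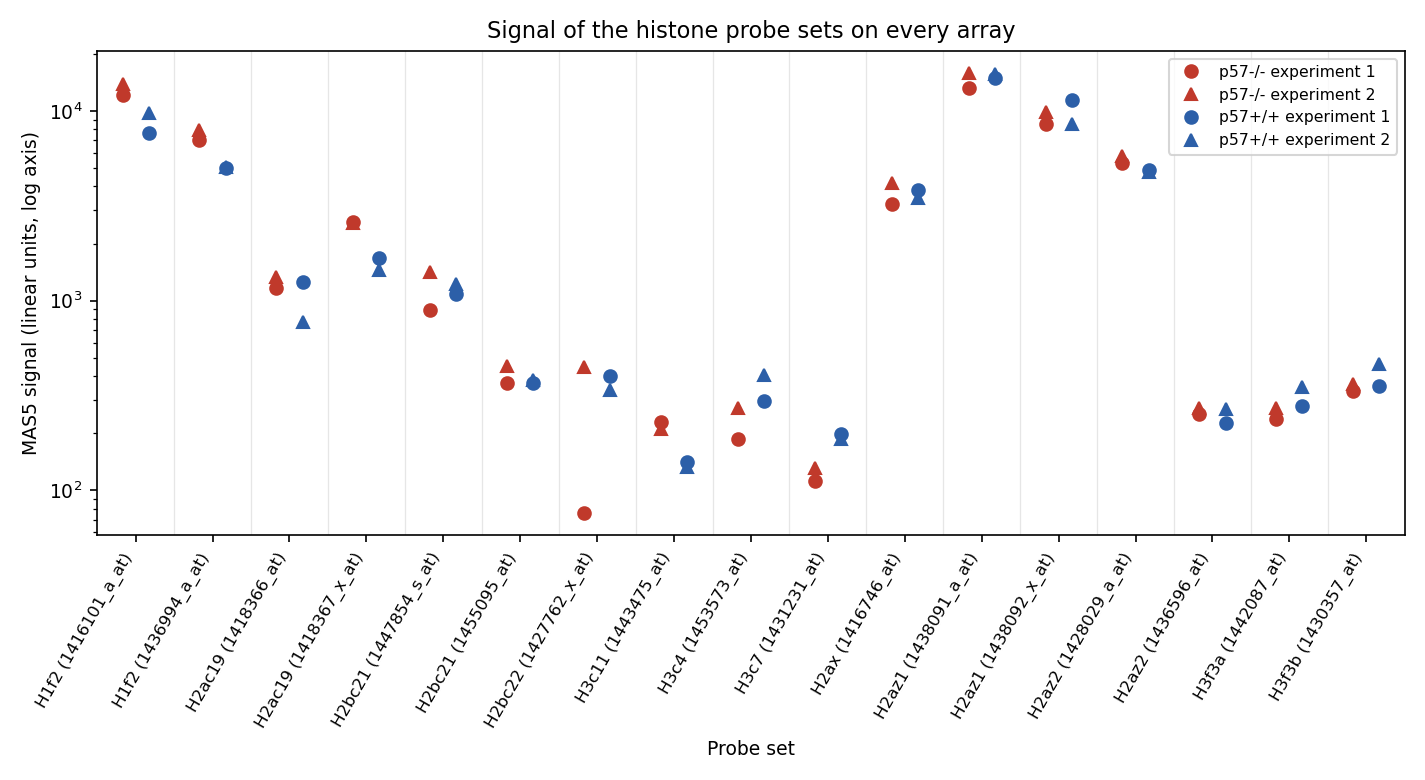
MAS5 signal (linear units on a log axis) of each of the 17 histone probe sets, with p57-/- in red left of p57+/+ in blue, circles for experiment 1 and triangles for experiment 2, and 1 point per array. Both H1f2 probe sets, the H2ac19 probe set with the x_at ending and the H3c11 probe set have both p57-/- points above both p57+/+ points, and H2bc22 has 1 p57-/- array at 75.5, far below its other arrays.

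H1f2, which encodes the linker histone H1.2, was the only linker gene with a detected probe set, and both of its probe sets had both p57-/- arrays above both p57+/+ arrays. One gave 12135 and 13929.9 in p57-/-, against 7668 and 9698 in p57+/+. The lower p57-/- array lay above the higher p57+/+ array. Its log2 change was 0.59 (SE 0.14, 95% interval 0.28 to 0.90), a 1.51-fold difference that did not pass in limma (adjusted p = 0.519). The other gave 7071 and 7895 in p57-/-, against 5016 and 5071 in p57+/+. Again the groups did not overlap. Its log2 change was 0.57 (SE 0.12, 95% interval 0.31 to 0.83), 1.48-fold, with the same adjusted p of 0.519 in limma. Within the experiments the log2 changes were 0.66 and 0.52 for the first probe set and 0.50 and 0.64 for the second. When each array was left out in turn, the changes kept their sign and ran from 0.42 to 0.76 and from 0.49 to 0.65. By unadjusted limma p the probe sets ranked 72 and 26 of 22800. The endings of both names mark probe sets shared between transcripts.

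The remaining linker probe sets did not pass the detection filter. A further H1f2 probe set was not detected, with no Present call and 56.2 and 76.1 in p57-/- against 45.3 and 40.8 in p57+/+. H1f4, the gene of linker histone H1.4, gave 22.1 and 32.6 in p57-/-, against 67.8 and 99.0 in p57+/+, with a single Present call on p57+/+ replicate 2. H1f10, a replication-independent linker variant, lay between 127 and 174 and was Absent on all arrays. The germ-line linker genes H1f7 and H1f8 were Absent on all 4 arrays, and the testis gene H1f6 was Present on 1. These genes were not tested.

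H2ac19 encodes a core histone H2A from the chromosome 3 cluster. Its probe set with the x_at ending, which marks probes that can bind other genes' RNA, gave 2602 and 2579 in p57-/-, against 1673 and 1444 in p57+/+. The p57-/- signals were nearly equal, and both lay above both p57+/+ signals. The log2 change was 0.74 (SE 0.14, 95% interval 0.43 to 1.04), 1.67-fold, with a limma adjusted p of 0.519. This was the highest log2 change among the members, and it ranked 14 by unadjusted p. Its other probe set, with the plain ending, gave 1168 and 1336 in p57-/-, against 1247 and 768 in p57+/+, so that the groups overlapped. There the log2 change was 0.35 (SE 0.22), at -0.09 in experiment 1 and 0.80 in experiment 2, and the probe sets of H2ac19 therefore disagreed in experiment 1. Without p57+/+ replicate 2 the plain probe set was at 0.0023. The probe set annotated to both H2ac19 and H2ac18 gave 83.3 and 82.5 in p57-/-, against 90.4 and 105 in p57+/+.

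Histone H2B was represented by H2bc21 and H2bc22, and their 3 probe sets each differed in opposite directions in the experiments. The H2bc21 probe set with the s_at ending gave 897 and 1418 in p57-/-, against 1079 and 1226 in p57+/+, where the p57+/+ signals lay between the p57-/- ones. Its log2 change was -0.03 (SE 0.21). The plain H2bc21 probe set gave 367 and 454 in p57-/-, against 367 and 382 in p57+/+, with a log2 change of 0.12 (SE 0.19). The H2bc22 probe set, which has the x_at ending, gave 75.5 and 449 in p57-/-, against 399.7 and 338 in p57+/+. One array, p57-/- replicate 1, was low, and the other 3 lay close together. The log2 change was -0.997 (SE 0.63), from -2.40 in experiment 1 and 0.41 in experiment 2. H2bc22 passed in limma without p57-/- replicate 2, at a log2 change of -2.28 (adjusted p = 0.00769), and was at 0.29 without p57-/- replicate 1, so this value rested on 1 array.

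The H3 genes H3c4, H3c7 and H3c11, all in the chromosome 13 clusters, encode replication-dependent H3, and each differed the same way in both experiments. H3c11 gave 228 and 211 in p57-/-, against 140.3 and 133 in p57+/+, without overlap. Its log2 change was 0.68 (SE 0.24, 95% interval 0.13 to 1.23), 1.60-fold, at 0.70 in experiment 1 and 0.66 in experiment 2. H3c7 gave 112 and 132 in p57-/-, against 199 and 185 in p57+/+, also without overlap, but with p57-/- below. The log2 change of H3c7 was -0.66 (SE 0.26, 95% interval -1.25 to -0.07). H3c4 gave 187 and 272 in p57-/-, against 297 and 404 in p57+/+. Both p57-/- arrays lay below both p57+/+ arrays, and the log2 change was -0.62 (SE 0.26, 95% interval -1.20 to -0.04). That of H3c4 was -0.35 without p57-/- replicate 1 and -0.40 without p57+/+ replicate 2. None of the 3 passed in limma, with adjusted p of 0.578, 0.621 and 0.631 for H3c11, H3c7 and H3c4. Whether each signal comes from the named H3 gene alone was not tested.

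**Figure D2:**
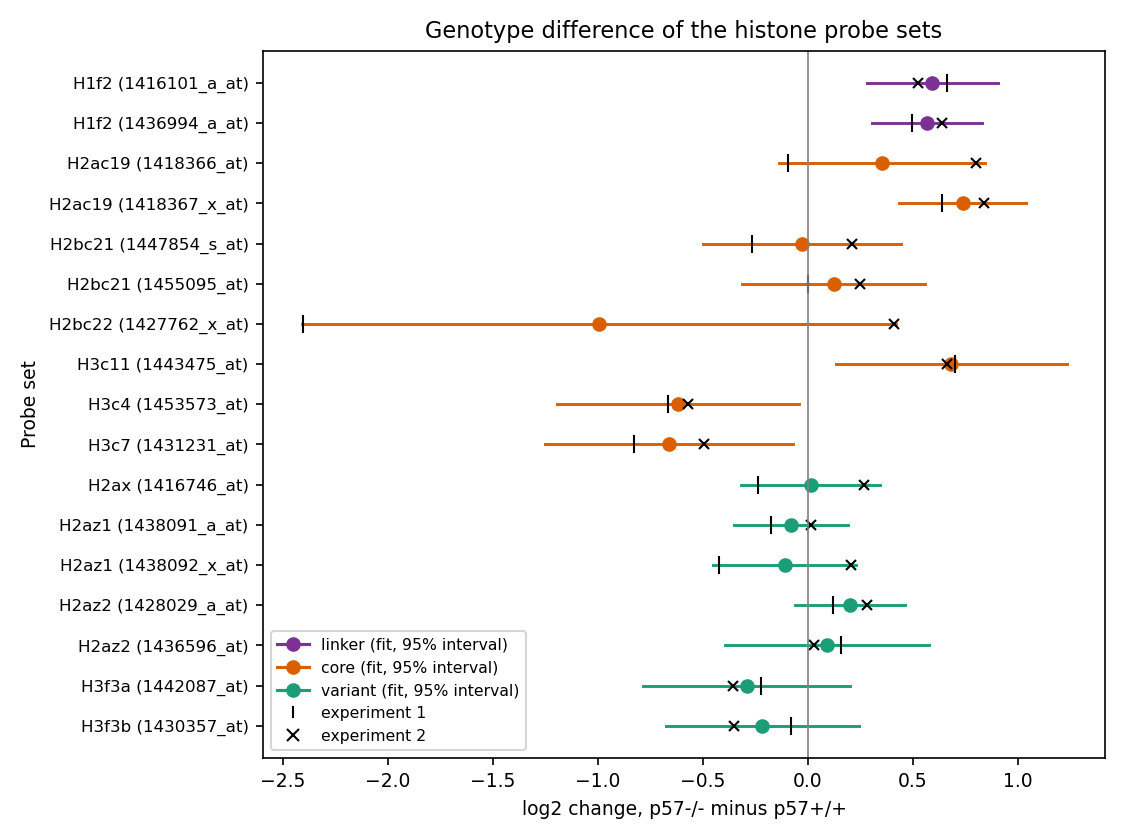
Log2 change of each histone probe set, p57-/- minus p57+/+, with points for the limma estimate, horizontal lines for its 95% interval, and black bars and crosses for experiments 1 and 2. The intervals of H1f2, H2ac19 (x_at ending) and H3c11 lie above 0, those of H3c4 and H3c7 below 0, and H2bc22 spans -2.41 to 0.42; none passed after adjustment over 22800 probe sets.

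Variant histone genes had log2 changes from -0.29 to 0.20 over 7 probe sets, with a median size of 0.11, beside 0.64 for the 8 core probe sets and 0.17 for all probe sets tested other than members. This difference in size was not tested, and the classes differed in brightness. The dim core probe sets of H2bc22, H3c4, H3c7 and H3c11 had SE of 0.24 to 0.63. Among the variants, the bright probe sets of H2ax and H2az1 had SE of 0.12 to 0.15. The dim ones of H3f3a, H3f3b and H2az2 (plain) had SE of 0.21 to 0.22. None of the 7 variant probe sets had an unadjusted limma p under 0.05. H2az1 encodes H2A.Z, a variant found at promoters, and its probe set with the a_at ending gave 13246 and 15898 in p57-/-, against 14976 and 15729 in p57+/+. The p57+/+ signals lay between the p57-/- ones, and the log2 change was -0.08 (SE 0.12, 95% interval -0.35 to 0.19). The H2az1 probe set with the x_at ending gave 8489 and 9853 in p57-/-, against 11398 and 8555 in p57+/+, with a log2 change of -0.11 (SE 0.15).

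H2az2 encodes the second form of H2A.Z. Its probe set with the a_at ending gave 5311 and 5805 in p57-/-, against 4887 and 4786 in p57+/+, without overlap. The log2 change was 0.20 (SE 0.12, 95% interval -0.06 to 0.46), with a limma adjusted p of 0.703, the lowest among the variants. The plain H2az2 probe set gave 252 and 272 in p57-/-, against 227 and 267 in p57+/+, with a log2 change of 0.09 (SE 0.22). H2ax encodes H2A.X, the variant that is phosphorylated at DNA breaks. It gave 3228 and 4177 in p57-/-, against 3808 and 3474 in p57+/+, with a log2 change of 0.01 (SE 0.15, 95% interval -0.32 to 0.35), so that this interval includes changes in either direction.

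H3f3a and H3f3b both encode H3.3, the replacement histone laid down outside replication. H3f3a gave 237 and 272 in p57-/-, against 277 and 348 in p57+/+, and the p57-/- arrays were the lower ones. Its log2 change was -0.29 (SE 0.22), at -0.13 without p57+/+ replicate 2, -0.19 without p57-/- replicate 1 and -0.46 without p57+/+ replicate 1. H3f3b gave 333 and 362 in p57-/-, against 353 and 462 in p57+/+, with overlap and a log2 change of -0.22 (SE 0.21). The H3f3b change was -0.022 without p57+/+ replicate 2 and -0.41 without p57+/+ replicate 1. The rule left out 5 detected probe sets annotated to both H3.3 genes and several further symbols, with log2 changes from -0.21 to 0.24. One gave 13009 and 15903 in p57-/-, against 12146 and 12152 in p57+/+, and another gave 20247 and 22226 in p57-/-, against 18712 and 19491 in p57+/+, each without overlap. A further one gave 21315 and 23809 in p57-/-, against 27184 and 25069.8 in p57+/+, with p57-/- below. The H3.3 probe sets therefore lay on both sides of 0.

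Counted over the classes, both p57-/- arrays lay above both p57+/+ arrays for 5 members, the 2 of H1f2 and 1 each of H2ac19, H3c11 and H2az2. All probe sets tested gave 19.8% by the same count. Both p57-/- arrays lay below for 3 members, H3c4, H3c7 and H3f3a, beside 18.8% of all probe sets tested. A difference of at least 1.5-fold in both experiments was seen for 2 members, the x_at probe set of H2ac19 and H3c11, both higher in p57-/-, where 1.06% of all probe sets were that much higher and 1.37% that much lower. H1f2 came just under, since each of its probe sets reached 1.5-fold in only 1 experiment.

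**Figure D3:**
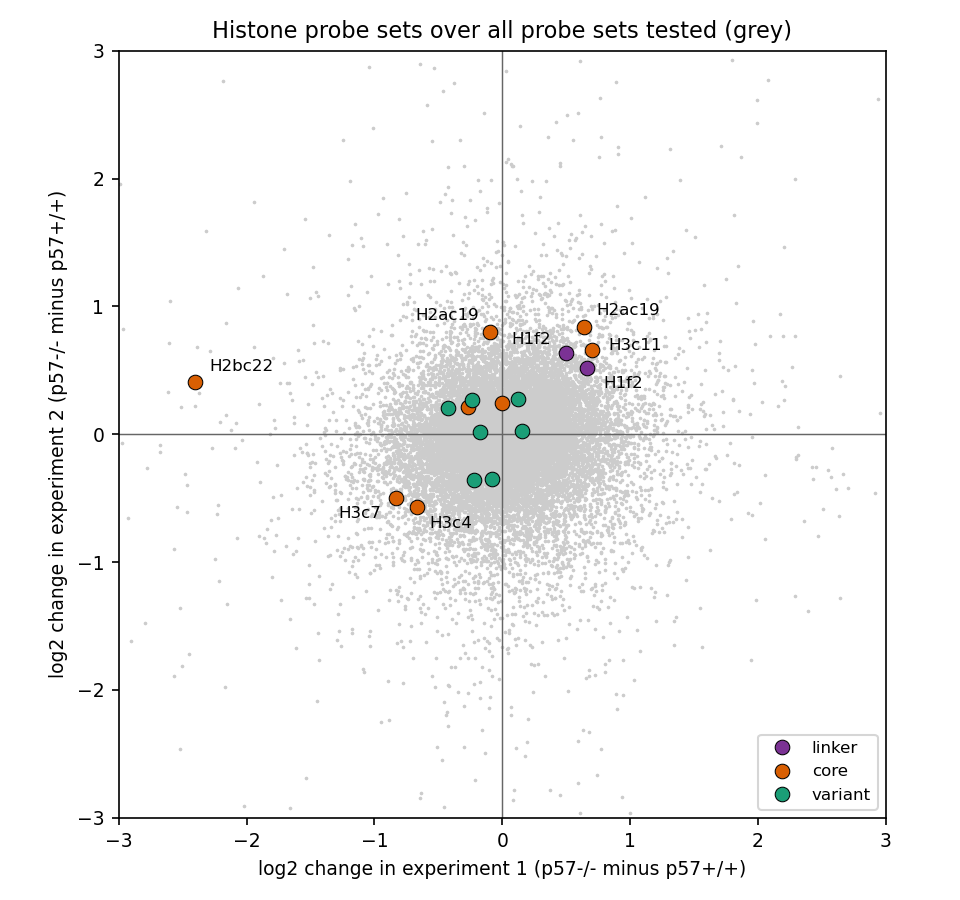
Log2 change in experiment 1 (horizontal) against experiment 2 (vertical), each p57-/- minus p57+/+ with 1 array a genotype, for the histone probe sets in colour by class and for all probe sets tested in grey; 132 of the 22800 lie outside the axes. H1f2, H3c11 and 1 H2ac19 probe set sit in the upper right, H3c4 and H3c7 in the lower left, and H2bc22 at -2.40 and 0.41.

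Of the 24 histone probe sets annotated to several symbols, 21 were detected. They are not members, and those named here were chosen after their values were seen. Their median log2 change was 0.04, and 0 passed the threshold in limma. Of the 21, 9 lay higher and 5 lower in both experiments, beside 27.9% and 26.8% of all probe sets tested. Of 4 detected replication-dependent H3 probe sets, 3 lay higher in both experiments, with log2 changes of 0.38, 0.81 and 0.86, and 1 lay lower in both. The highest gave 250.4 and 307 in p57-/-, against 147 and 159 in p57+/+, with a log2 change of 0.86 (SE 0.24). The lower one gave 654 and 1011 in p57-/-, against 1164 and 1153 in p57+/+, with a log2 change of -0.51 (SE 0.20). All 4 are annotated to several H3 genes that include H3c4 and H3c7, whose own probe sets lay lower. Those at 0.81 and -0.51 are also annotated to H3c11, whose own probe set lay higher. Of 4 detected H4 probe sets, 1 lay higher and 1 lower in both experiments, with log2 changes from -0.31 to 0.19. Of 4 detected H2B probe sets, 3 lay higher and 1 lower in both experiments, with log2 changes from -0.37 to 0.36. The highest of these gave 18857 and 17553 in p57-/-, against 15085 and 13271 in p57+/+, with a log2 change of 0.36 (SE 0.11). Its symbols include H2bc22, whose own probe set, with the x_at ending, was at -0.997, a value that rested on 1 array. A probe set shared by many H2A genes gave 23496 and 32072.5 in p57-/-, against 28819.6 and 29898 in p57+/+, with the p57+/+ signals between the p57-/- ones.

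Genes that make histone mRNA or carry histones were counted beside them, at the brightest probe set of each gene. Of 33 tested genes of histone transcription, 3' end processing and histone chaperones, 14 lay lower in p57-/- in both experiments and 3 higher in both, beside 26.8% and 27.9% of all probe sets tested. Their median log2 change was -0.13, and 0 passed in limma, with 4 lower and 0 higher at an unadjusted p under 0.05, beside 3.75% and 3.93% of all probe sets tested. Nasp, a chaperone of free H3-H4 and H1, gave 1571 and 2099.8 in p57-/-, against 2758 and 2547 in p57+/+, with a log2 change of -0.55 (SE 0.16). Slbp, which binds the stem-loop of replication-dependent histone mRNAs, gave 5276 and 7773 in p57-/-, against 9178 and 8229 in p57+/+. Its log2 change was -0.44 (SE 0.17), at -0.80 in experiment 1 and -0.08 in experiment 2. Asf1a, an H3-H4 chaperone, was at -0.35 (SE 0.14). In these 3 genes both p57-/- arrays lay below both p57+/+ arrays. Npat, a co-activator of replication-dependent histone genes, had a log2 change of -0.08 (SE 0.18). Of histone genes outside the name rule 5 were tested, and 0 passed in limma. H2aw, an H2A gene, gave 1959.8 and 2012 in p57-/-, against 1755 and 1406 in p57+/+, without overlap and with a log2 change of 0.34 (SE 0.15). H2aj, another H2A gene, was at -0.06 (SE 0.13), and Cenpa, the centromeric H3 variant, at -0.04 (SE 0.12). The macroH2A genes Macroh2a1 and Macroh2a2 were at -0.02 (SE 0.12) and 0.12 (SE 0.35). These 5 genes and Npat were named after their values were seen.

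Signals of other cell types and of dividing cells also differed between these arrays. At the brightest probe set of each gene, all 28 genes of a DNA replication list had a log2 change below 0, with a median of -0.35, of -0.58 in experiment 1 and -0.07 in experiment 2. Of the 28, 18 lay lower in both experiments, beside 26.8% of all probe sets tested. The other 10 differed in opposite directions, beside 45.3%, and 0 passed in limma. The summed signal of the 28 was 97975 and 137078 in p57-/-, against 146559 and 146842 in p57+/+. E2f1 was nearest to 0, at -0.0099, and over all 54 probe sets of these genes 52 were below 0. Of all 22800 probe sets tested, 11158 were below 0. All 9 tested genes of a 10-gene erythroid list lay lower in both experiments, beside 26.8% of all probe sets tested, with a median of -0.51. The summed signal of these 9 was 68709 and 91232 in p57-/-, against 101007 and 107633 in p57+/+, and none was at 0. The summed signal of 6 mesothelium genes was 8061 and 9267 in p57-/- against 7003 and 8954 in p57+/+. These genes did not differ alike: 2 lay higher and 3 lower in both experiments, beside 27.9% and 26.8% of all probe sets tested. Their median log2 change was 0.03. The summed signal of 6 mesenchyme genes was 72699 and 66934 in p57-/- against 56849 and 64599.8 in p57+/+. The mean summed signal in p57-/- was 1.01 times that in p57+/+ for hepatocyte, 1.10 times for granulocyte, 0.963 times for macrophage and 1.17 times for endothelium markers. The hepatocyte sum was 299605 and 289778 in p57-/-, against 259779 and 322314 in p57+/+. The granulocyte sum was 175046 and 180245 in p57-/-, against 161515 and 161057 in p57+/+. Both lay above the mesothelium sum on every array. The highest signal on every array was from the hepatocyte genes Apoa1 or Ttr. Whether signals that high still follow RNA amount was not tested. The endothelium sum was 6139 and 4416 in p57-/-, against 4158 and 4832 in p57+/+, so it differed in opposite directions in the experiments. The hepatocyte and macrophage sums did so too, and the granulocyte sum was higher in p57-/- in both. The part of these signals in the histone values was not tested. In these bulk samples fewer cells of a type and less RNA per cell cannot be told apart.

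**Figure D4:**
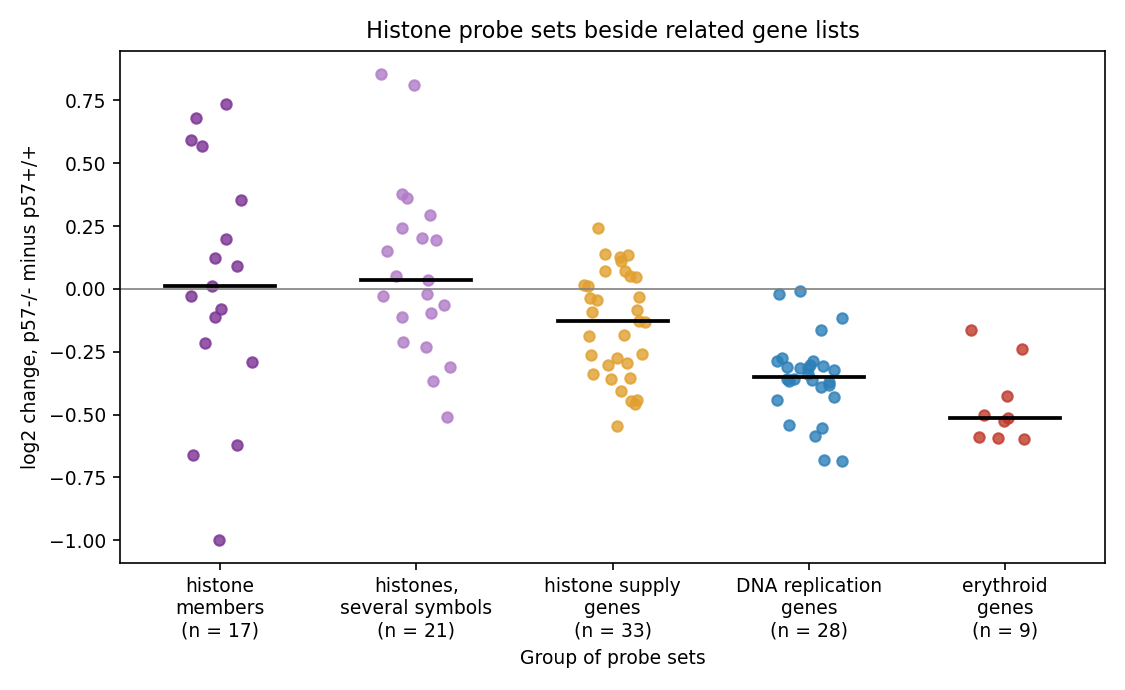
Log2 change, p57-/- minus p57+/+, with 1 point per probe set and black lines for medians, for the 17 members, the 21 detected histone probe sets with several symbols, and the histone supply (33), DNA replication (28) and erythroid (9) genes at their brightest probe set. Histone points spread to both sides of 0 around medians of 0.014 and 0.04, and the replication and erythroid points all lie below 0.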

How the data were processed

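Signals of 4 arrays were analysed, 2 of p57-/- and 2 of p57+/+ cells, each from 250 ng of total RNA, per the labels. The deposited values are MAS5 signal intensities on a linear scale and detection p-values with Present, Marginal or Absent calls, per the file headers. The submitters' processing notes name MAS5 without a version. The mean deposited signal after trimming 2% at each end was 500.003 on every array, so scaling fixed each array's average and would hide a change in total RNA.

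Signals were log2 transformed without further normalization. Controls were left out, and 22800 probe sets Present on at least 2 arrays were tested. Genotype differences were fitted in R 4.3.3 by limma 3.58.1, using lmFit and eBayes with the trend option and no block. Tests were two-sided, and Benjamini-Hochberg adjustment ran over every probe set tested, with a threshold of 0.05. The script was tested on simulated data. Symbols came from the platform annotation, and RefSeq tables of GRCm38.p6 gave positions and promoters.

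The members and gene lists were chosen with earlier results of these data known, and counts and medians of a list are descriptions. Named were the marker genes H2ac19 and H1f2, then per class the 3 probe sets of smallest p, the brightest, and those at least 1.5-fold different the same way in both experiments; with 17 members, values are given for all. Alternatives were quantile normalization, centring, a pseudocount of 16, other detection filters, no variance trend, the experiment as a block, leaving out each array, the deposited value table, 1 probe set per gene, and plain probe sets only.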

Additional observations from a re-analysis of the deposited data

How the results depend on the processing

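The replicate numbers are experiment numbers in the titles, and the labels do not explain them. Across the 22800 probe sets, the differences between replicates 1 and 2 of the genotypes had a correlation of 0.0046, so no pairing was seen over the array as a whole. A correlation over all probe sets cannot show whether some genes shared a difference between the experiments. With the experiment number as a replicate block, limma called 30 probe sets, 10 higher and 20 lower, against 1 without the block, and still 0 histone probe sets (lowest adjusted p = 0.0541). That lowest value was of H2ac19 (x_at), and the H1f2 probe sets had limma adjusted p of 0.0660 and 0.0867 with the block. Each of these was at 0.519 without the block, so their adjusted p depended on whether the experiment was modelled. With only probe sets Present on all 4 arrays, which removes Cdkn1c, limma called 0. Leaving out each array gave 5 to 221 probe sets called and 0 to 1 histone probe sets, the 1 being H2bc22 without p57-/- replicate 2. The members' median ran from -0.17 to 0.26, the core median from -0.19 to 0.30 and the variant median from -0.21 to 0.051. With the brightest probe set per gene, the members' median was -0.054 and the core median -0.32. Signs of single probe sets reversed only when an array was left out, in 7 probe sets. H2bc21 (s_at) ran from -0.36 to 0.30, H2bc21 (plain) from -0.030 to 0.28 and H2bc22 from -2.28 to 0.29. H2ax ran from -0.17 to 0.20, H2az1 (a_at) from -0.21 to 0.051, H2az1 (x_at) from -0.32 to 0.10 and H2az2 (plain) from -0.027 to 0.21. The cause was not tested. In the alternatives run with all 4 arrays, none of the 17 changed sign or passed. The count lower in both experiments was 5 after quantile normalization, against 4.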
